A study of Mus musculus with 6 samples.

Results

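The genes described here encode the chaperones of the endoplasmic reticulum (ER) and the branches of the ER stress response, 38 genes in all. They were taken from the array as every non-control probe whose current or older symbol was on the list, which gave 47 of 39429 probes. All 38 genes had at least 1 probe and 9 had 2 probes. They comprise 14 ER chaperones and folding factors, 4 stress sensors and transcription factors, 16 genes of the PERK and ATF4 branch including Atf4 itself, 2 ER oxidases and 2 further genes of beta cell ER stress.

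The cells were MIN6B1, a mouse insulinoma line that secretes insulin and stands in for pancreatic beta cells. In 3 samples circHIPK3, a circular RNA transcribed from Hipk3, was targeted with an siRNA, and 3 control samples received an siRNA against green fluorescent protein (siGFP). Both groups were transfected with a lipid reagent, were kept in the same serum-containing medium with beta-mercaptoethanol, a reducing agent, and were measured at 48 h by hybridising total RNA to single-colour Agilent arrays. MIN6B1 is a single line, and nothing in the labels says that the 3 samples of a group were separate cultures, so that p-values here measure only the spread between these samples.

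ER chaperones bind proteins that enter the secretory pathway and help them fold, and beta cells need them because they make proinsulin in large amounts. When unfolded protein accumulates, 3 sensors in the ER membrane respond. ATF6 is cleaved to an active transcription factor, and IRE1 (gene Ern1) splices Xbp1 messenger RNA into the form that encodes an active factor; both raise transcription of chaperone genes. The sensor PERK (gene Eif2ak3) phosphorylates the translation factor eIF2, which lowers protein synthesis but favours translation of the transcription factor ATF4. ATF4 acts on genes of amino acid supply, redox balance and feedback, and it is also reached by other eIF2 kinases that respond to stresses outside the ER.

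The arms act in part through different response elements in DNA, and matches to some of these are shown. A match or its absence does not by itself assign a gene to an arm. The ER stress response element (ERSE), read by ATF6 with NF-Y, was searched as CCAAT and CCACG with 9 free bases between them. Its variant ERSE-II was searched as ATTGG and CCACG with 1 free base between them, and the CEBP-ATF composite element (CARE) of ATF4 as TGATG and AA with 1 free base between them. Each was searched on both strands in the RefSeq promoters of assembly GRCm38.p6, from 250 bases before to 50 bases after the transcription start, and matches may overlap. A promoter was listed for 34 of the 38 genes, and Manf, Hyou1, Atf6 and Slc7a5 were not searched. ERSE was found in 7 of the 12 chaperone promoters searched and in that of the oxidase gene Ero1b, against 37 of 27025 genes overall (0.137%). Each match is given 5′ to 3′ on the strand that reads as the element, with 10 flanking bases and the fixed letters of the element in capitals.
Calr (chr8:84847065-84847103, plus strand): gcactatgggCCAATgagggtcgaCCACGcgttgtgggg
Canx (chr11:50325790-50325828, minus strand): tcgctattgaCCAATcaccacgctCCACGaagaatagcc
Creld2 (chr15:88819510-88819548, minus strand): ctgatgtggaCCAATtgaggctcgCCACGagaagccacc
Dnajc3 (chr14:118937817-118937855, plus strand): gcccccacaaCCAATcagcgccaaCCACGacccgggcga
Ero1b (chr13:12565672-12565710, minus strand): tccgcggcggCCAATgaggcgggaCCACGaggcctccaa
Hsp90b1 (chr10:86705523-86705561, plus strand): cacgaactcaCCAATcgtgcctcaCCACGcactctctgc
Hsp90b1 (chr10:86705628-86705666, minus strand): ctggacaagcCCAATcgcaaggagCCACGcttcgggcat
Hspa5 (chr2:34772015-34772053, plus strand): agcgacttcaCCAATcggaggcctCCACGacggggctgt
Pdia6 (chr12:17266481-17266519, plus strand): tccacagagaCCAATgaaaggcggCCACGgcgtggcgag

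The Hsp90b1 promoter held 2 ERSE matches in opposite orientation. ERSE-II was found in 12 genes overall (0.044%), of which Dnajb11 was the single member. Its match lay just downstream of the annotated start.
Dnajb11 (chr16:22857842-22857872, plus strand): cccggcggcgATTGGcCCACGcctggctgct

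CARE was found in 6 of the 15 searched promoters of the PERK and ATF4 branch, against 1219 of 27025 genes (4.51%), and in no chaperone promoter. Slc7a11 held 2 matches. CARE has few fixed letters and so occurs in many promoters. A match in these windows is a description of the sequence and does not show binding.
Asns (chr6:7693215-7693242, minus strand): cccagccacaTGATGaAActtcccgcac
Chac1 (chr2:119351039-119351066, minus strand): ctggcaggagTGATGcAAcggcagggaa
Nupr1 (chr7:126625563-126625590, plus strand): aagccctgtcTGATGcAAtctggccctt
Slc7a11 (chr3:50443643-50443670, plus strand): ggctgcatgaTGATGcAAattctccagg
Slc7a11 (chr3:50443662-50443689, minus strand): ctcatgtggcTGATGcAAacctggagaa
Trib3 (chr2:152344029-152344056, plus strand): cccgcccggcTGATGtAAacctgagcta
Vldlr (chr19:27216810-27216837, minus strand): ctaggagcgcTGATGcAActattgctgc

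**Figure D1:**
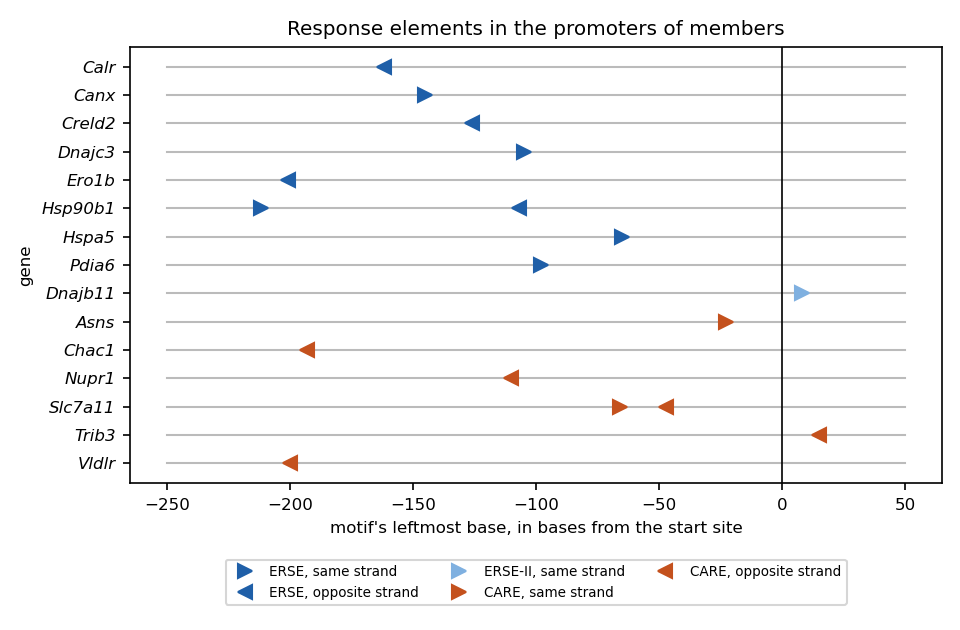
Positions of the ERSE, ERSE-II and CARE matches in the promoters of the members that hold one. The horizontal axis gives the leftmost base of each match in bases from the transcription start, each grey line is the searched window of 1 promoter, and the arrowheads point right for the strand of the gene and left for the other strand. ERSE matches stand in 8 genes and all begin upstream of the start, whereas CARE begins at base 15 in Trib3.

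The 75th percentile of the processed signal, by which each array was scaled, lay between 2939 and 3669 units, and it overlapped between groups. The share of probes well above background did not overlap, at 77.7%, 79.8% and 78.6% with siGFP and 80.7%, 83.5% and 82.5% with the circHIPK3 siRNA. By the file headers, all siGFP arrays were read in one scan together with circHIPK3 siRNA replicate 1, and circHIPK3 siRNA replicates 2 and 3 in another. The median change over all 25773 genes and unnamed transcripts tested was 0.08 on the log2 scale, and it declined with brightness from 0.28 in the dimmest of 4 equal bins of genes by signal to -0.01 in the brightest. This matters because 31 of the 38 members lie in the brightest bin, so counts are given beside those for that bin. Among the genes tested, 303 (1.18%) passed an adjusted p of 0.05, 138 higher (0.535%) and 165 lower (0.64%) with the circHIPK3 siRNA (limma, Benjamini-Hochberg). Hipk3 had a change of -0.17 ± 0.14 (SE) by its brighter probe, from signals of 2.69, 2.96 and 2.78 with siGFP and 2.53, 2.89 and 2.51 with the circHIPK3 siRNA, which overlap, and -0.31 ± 0.12 (SE) by its second probe. No probe was matched to the circular RNA, so these values do not check the knockdown. The beta cell markers were bright on all arrays, with mean log2 signals from 1.75 for Pdx1 to 6.89 for Ins2, and 0 of 10 passed the test. Ins1 at -0.12 and Slc30a8 at -0.33 were lower without overlap, which makes 2 of 10, against 14.1% of the brightest bin. Markers of acinar and duct cells lay between -5.99 and -4.54 and Ptprc of blood cells at -4.45. Col1a1 of fibroblasts lay at -2.34 and Pecam1 of endothelium at -2.49, whereas Gcg, the glucagon gene of alpha cells, lay at 4.09. Of the 4 markers of other islet cells 0 passed the test. Gcg had a change of -0.59 with overlapping groups, and the dim markers Sst, Ghrl and Ppy, with signals of -5.21, -2.45 and -1.88, had changes of 0.30, 0.23 and 0.52, without overlap for Sst and Ghrl. The part of other islet cell types in the results was not tested.

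Of the 38 genes 0 passed the test across all genes, against 1.18% of all genes tested. With median scaling Creld2 passed (2.33% of all genes did), with trend and robust variance Creld2, Ddit4 and Ero1a (2.44%), and with array weights Sdf2l1, Creld2, Ppp1r15a and Ero1a (7%). At an unadjusted p under 0.05 there were 6 members, 3 of them higher and 3 lower, against 14.6% of all genes higher, 6.51% lower and 21.1% in either direction. Within the brightest bin the shares were 3.34% higher and 8.38% lower. The arrays of both groups did not overlap for 5 members. Creld2 and Pdia3 were lower on all 3 circHIPK3 siRNA arrays, and Ddit4, Ppp1r15a and Ero1a were higher, against 9.38% of all genes lower, 16.6% higher and 25.9% in either direction. Within the brightest bin of genes these shares were 14.1% and 9.16%. For all 5 the exact two-sided permutation p was 0.1, the smallest that 3 against 3 arrays can give. Signals below are log2 values relative to the 75th percentile of the array, and changes are circHIPK3 siRNA minus siGFP in log2 units with the standard error of the limma fit.

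**Figure D2:**
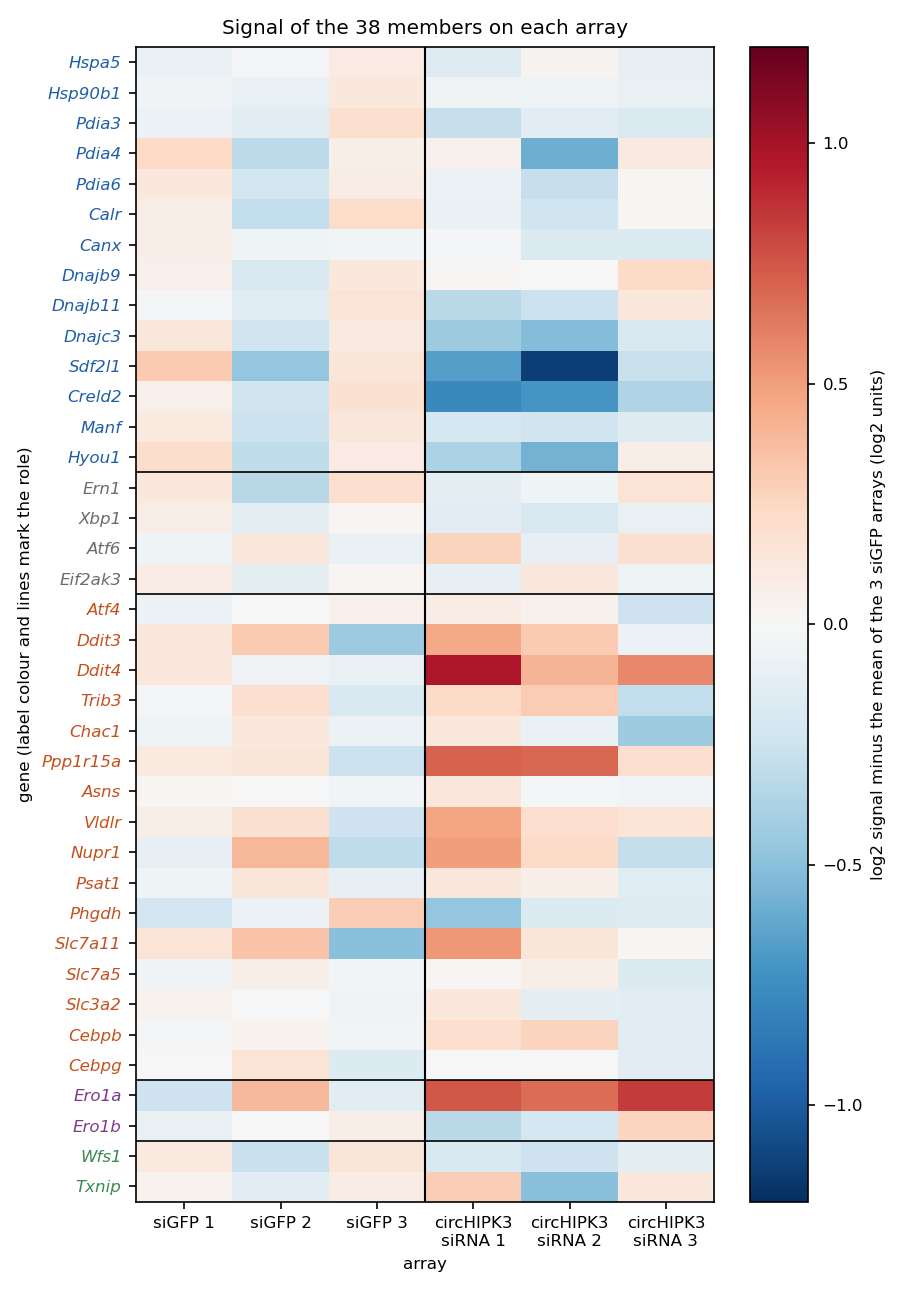
Signal of each of the 38 genes on each of the 6 arrays, as log2 signal minus the mean of the 3 siGFP arrays, with red above and blue below that mean. Rows are grouped by role and columns are single arrays. Sdf2l1 and Creld2 are the bluest rows on the circHIPK3 siRNA side, and Ddit4, Ppp1r15a and Ero1a the reddest.

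Among the chaperones, Creld2 stood lowest relative to its spread. Creld2 encodes a secreted and ER-resident protein with disulfide isomerase activity that is induced by ER stress. Its signal was 3.82, 3.52 and 3.94 on the siGFP arrays and 2.98, 3.05 and 3.40 on the circHIPK3 siRNA arrays. Every circHIPK3 siRNA array lay below every siGFP array. The group means were 3.76 ± 0.22 and 3.14 ± 0.22 (SD, n = 3), and the change was -0.61 ± 0.16, a 1.53-fold lower signal with an adjusted p of 0.103 (limma).

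The change with the greatest size among the chaperones was that of Sdf2l1, which encodes an ER-resident partner of BiP cochaperones; it and Dnajc3 are set out because of their size and were chosen after their values were seen. Sdf2l1 signals were 3.30, 2.52 and 3.13 with siGFP and 2.32, 1.85 and 2.72 with the circHIPK3 siRNA. The change was -0.69 ± 0.27 with an adjusted p of 0.208 (limma). The groups overlapped, because siGFP replicate 2 lay below circHIPK3 siRNA replicate 3. Dnajc3 encodes P58IPK, a BiP cochaperone that also inhibits eIF2 kinases. Its signals were 1.66, 1.29 and 1.63 with siGFP and 1.10, 1.01 and 1.35 with the circHIPK3 siRNA, a change of -0.38 ± 0.14 with an adjusted p of 0.201 (limma). These groups overlapped through the same pair of arrays.

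Pdia3 encodes ERp57, the disulfide isomerase that works with calnexin and calreticulin on glycoproteins. Its signals were 4.09, 4.03 and 4.35 with siGFP and 3.88, 4.03 and 3.98 with the circHIPK3 siRNA. The groups did not overlap, but both replicates 2 round to the same signal. The change was -0.19 ± 0.12 with an adjusted p of 0.366 (limma).

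Hspa5 encodes BiP, the main Hsp70 chaperone of the ER, and had the highest mean signal of the members. Its signals were 5.61, 5.65 and 5.78 with siGFP and 5.53, 5.72 and 5.58 with the circHIPK3 siRNA. These overlapped, and the change was -0.07 with a 95% interval of -0.31 to 0.17. Hsp90b1, which encodes the ER Hsp90 GRP94, was similarly placed at -0.06 with an interval of -0.30 to 0.17. For both genes the interval leaves out a fold as large as the one measured for Creld2. That comparison sets 2 intervals side by side and is no test of the difference between genes.

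The other chaperones gave smaller or less certain values. Hyou1, which encodes the nucleotide exchange factor GRP170, was at -0.29, and Manf, which encodes a secreted survival factor held in the ER by BiP, was at -0.20. The disulfide isomerase genes Pdia4 and Pdia6 were at -0.14 and -0.11, and a second, dimmer Pdia6 probe gave -0.30. The lectin chaperones of glycoproteins, calnexin (Canx) and calreticulin (Calr), were at -0.12 and -0.10. Of the genes for BiP cochaperones of the J-domain family, Dnajb11 was at -0.15 and Dnajb9 at 0.08, the single chaperone above 0. The second probe of Dnajb9 gave -0.08, so the probes of this gene disagree in sign.

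The chaperones with and without an ERSE overlapped in size of change. The 7 with an ERSE in the searched window ranged from -0.61 to -0.06 with a median of -0.11, and the other 5 promoters searched belonged to genes ranging from -0.69 to 0.08 with a median of -0.15. Creld2 and Hspa5 both hold an ERSE, and their changes were -0.61 and -0.07. Their promoters are given whole to show this, with the fixed ERSE letters in capitals. In Creld2 the element reads on the other strand.
Creld2 (chr15:88819396-88819695, plus strand): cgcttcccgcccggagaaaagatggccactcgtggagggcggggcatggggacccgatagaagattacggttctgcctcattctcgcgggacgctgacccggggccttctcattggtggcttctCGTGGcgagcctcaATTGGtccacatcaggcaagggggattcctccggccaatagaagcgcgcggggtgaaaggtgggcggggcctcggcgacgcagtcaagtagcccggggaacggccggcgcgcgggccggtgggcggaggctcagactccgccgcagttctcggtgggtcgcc
Hspa5 (chr2:34771840-34772139, plus strand): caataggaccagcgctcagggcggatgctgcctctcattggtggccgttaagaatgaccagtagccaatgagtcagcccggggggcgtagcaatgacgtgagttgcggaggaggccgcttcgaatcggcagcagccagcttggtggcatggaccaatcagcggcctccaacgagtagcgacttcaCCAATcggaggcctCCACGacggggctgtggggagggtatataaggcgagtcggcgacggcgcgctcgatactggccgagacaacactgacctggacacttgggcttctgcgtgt

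Over the whole array, 20 genes with an ERSE were measured, and their median change was -0.16 relative to the median of all genes, with 15 of 20 below it. Of the 20 genes, 12 belong to the brightest bin, in which 74.9% of genes lay below that median. Without the members there were 12 genes with an ERSE, 4 of them in the brightest bin, and 7 lay below that median. A single one of the 20 passed the test, against 1.18% of all genes tested. It was Derl3 and was named after its value was seen. Derl3 encodes a component of the ER-associated degradation channel for misfolded proteins. Its signals were 0.57, -0.19 and 0.65 with siGFP and -0.97, -1.29 and -1.12 with the circHIPK3 siRNA, without overlap. The change was -1.47 ± 0.23 with an adjusted p of 0.0428 (limma). This call was lost with scan as a fixed block (adjusted p = 0.231) or a random block (0.057), with no filter on dim probes (0.0881), and when any one array other than circHIPK3 siRNA replicate 1 was left out.

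**Figure D3:**
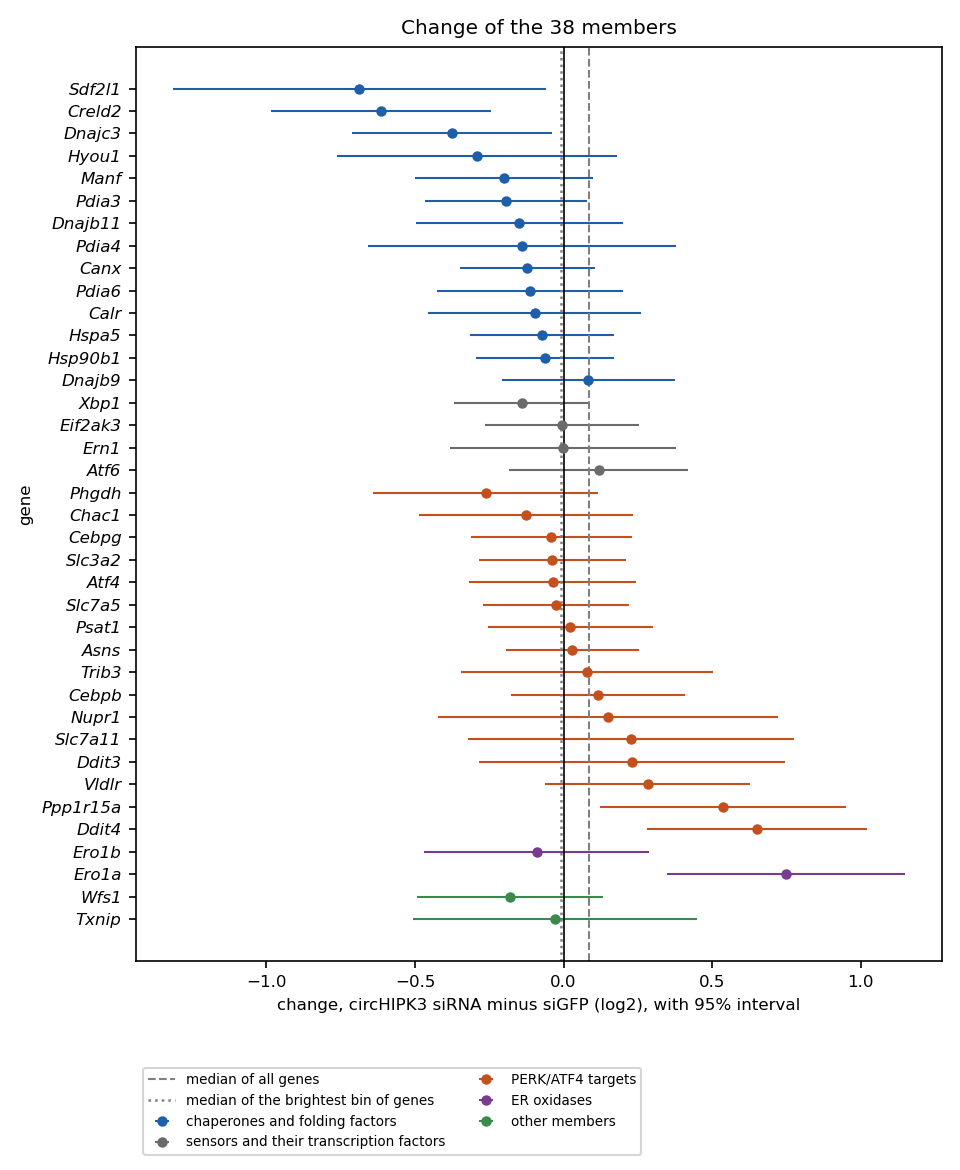
Change of each of the 38 genes, circHIPK3 siRNA minus siGFP in log2 units, with the 95% interval of the limma fit and colours for the role of the gene. The dashed and dotted vertical lines mark the medians of all genes and of the brightest bin of genes. Of the chaperone points 13 of 14 lie below 0, against 3394 of 6443 genes in the brightest bin and 9254 of all 25773. The points of the PERK and ATF4 branch lie on both sides.

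The sensors gave small changes. Xbp1, the transcription factor downstream of IRE1, had signals of 4.02, 3.84 and 3.97 with siGFP and 3.81, 3.75 and 3.85 with the circHIPK3 siRNA. The change was -0.14 ± 0.10, and the groups overlapped at siGFP replicate 2. Ern1 was at -0.0013 and Eif2ak3 at -0.0067, with intervals of -0.38 to 0.38 and -0.27 to 0.25. Atf6 was at 0.12. The probes give the amount of messenger RNA and not the splicing of Xbp1, the cleavage of ATF6 or the phosphorylation of PERK, so activity of the sensors was not measured.

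Of the 16 genes of the PERK and ATF4 branch 0 passed the test, and the arrays of the groups did not overlap for Ddit4 and Ppp1r15a. Ddit4, which encodes REDD1, an inhibitor of the growth kinase complex mTORC1, had signals of 2.29, 2.13 and 2.08 with siGFP and 3.14, 2.58 and 2.74 with the circHIPK3 siRNA. Every circHIPK3 siRNA array lay above every siGFP array. The group means were 2.17 ± 0.11 and 2.82 ± 0.29 (SD, n = 3). The change was 0.65 ± 0.16, a 1.57-fold higher signal with an adjusted p of 0.0921 (limma).

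Ppp1r15a encodes GADD34, the phosphatase subunit that removes the phosphate from eIF2 and so restores translation. Its signals were 2.03, 2.05 and 1.65 with siGFP and 2.62, 2.60 and 2.12 with the circHIPK3 siRNA, without overlap. The change was 0.54 ± 0.18, a 1.45-fold higher signal with an adjusted p of 0.163 (limma). Replicate 3 was the lowest of its group on both sides.

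Atf4 itself, the most abundant signal of this branch, was at 5.30, 5.37 and 5.42 with siGFP and 5.45, 5.41 and 5.11 with the circHIPK3 siRNA. The ranges overlapped, and the change was -0.04 with an interval of -0.32 to 0.25. A dimmer second probe gave -0.18. Since ATF4 is controlled mainly at translation, its messenger RNA level does not report its protein.

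The other genes of the branch lay on both sides of 0, between -0.26 and 0.28. Asns, asparagine synthetase, was at 0.03 with an interval of -0.20 to 0.25. Trib3, a pseudokinase that feeds back on ATF4, was at 0.08, and Chac1, a glutathione-degrading enzyme, was at -0.13. Ddit3, which encodes the apoptotic factor CHOP, was at 0.23 with an interval of -0.28 to 0.74. Of the serine synthesis genes, Psat1 was at 0.02 and Phgdh at -0.26, and their second probes gave -0.015 and -0.25. The amino acid transporter genes Slc7a11, Slc7a5 and Slc3a2 were at 0.23, -0.02 and -0.04. The second probe of Slc7a5 gave 0.16, so the probes of Psat1 and of Slc7a5 disagree in sign. Vldlr, a lipoprotein receptor gene, was at 0.28 and its second probe at 0.23. Nupr1, which encodes a stress-induced chromatin protein, was at 0.15. The transcription factor genes Cebpb and Cebpg, whose products pair with ATF4, were at 0.12 and -0.04. For all 14 of these genes, Atf4 included, the groups overlapped.

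Genes with and without a CARE match overlapped in the same way. The 6 genes with the element ranged from -0.13 to 0.28 with a median of 0.11, and the others searched ranged from -0.26 to 0.65 with a median of 0.02. Neither Ddit4 nor Ppp1r15a, the top changes of the branch, held it in the searched window. The Ddit4 promoter is given in full as the example without a match, beside that of Asns, whose CARE is in capitals.
Ddit4 (chr10:59951721-59952020, minus strand): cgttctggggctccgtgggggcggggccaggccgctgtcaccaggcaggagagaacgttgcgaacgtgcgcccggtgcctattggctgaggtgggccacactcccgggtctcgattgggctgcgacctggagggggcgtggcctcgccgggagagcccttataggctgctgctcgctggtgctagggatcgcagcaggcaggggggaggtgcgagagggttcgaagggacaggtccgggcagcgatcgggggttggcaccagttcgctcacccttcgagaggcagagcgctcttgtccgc
Asns (chr6:7693160-7693459, minus strand): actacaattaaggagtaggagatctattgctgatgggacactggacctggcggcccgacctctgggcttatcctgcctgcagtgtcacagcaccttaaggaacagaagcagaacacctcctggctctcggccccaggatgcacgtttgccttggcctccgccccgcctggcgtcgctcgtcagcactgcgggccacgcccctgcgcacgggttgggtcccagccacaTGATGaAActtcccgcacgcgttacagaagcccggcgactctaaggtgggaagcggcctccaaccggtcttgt

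The ER oxidases pass electrons from protein disulfide isomerases to oxygen, and beta cells express both. Ero1a had signals of -0.55, 0.09 and -0.43 with siGFP and 0.45, 0.37 and 0.54 with the circHIPK3 siRNA. All circHIPK3 siRNA arrays lay above the siGFP arrays, which were the more scattered group. The change was 0.75 ± 0.17, a 1.68-fold higher signal with an adjusted p of 0.0816 (limma), the smallest among the 38 genes. Ero1b, the pancreatic form, had signals of 4.15, 4.24 and 4.31 with siGFP and 3.90, 4.02 and 4.49 with the circHIPK3 siRNA. These overlapped, and the change was -0.09 with an interval of -0.47 to 0.29. Ero1b holds an ERSE and Ero1a holds none of the 3 elements in the searched window.

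Wfs1 encodes wolframin, an ER membrane protein whose loss causes beta cell failure in Wolfram syndrome. Its signals were 2.01, 1.63 and 2.04 with siGFP and 1.71, 1.65 and 1.79 with the circHIPK3 siRNA, and the change was -0.18 ± 0.13. Txnip, a thioredoxin inhibitor that glucose and ER stress raise in beta cells, was at -0.03 by its brighter probe and 0.23 by its second. For both genes the groups overlapped.

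Set side by side, the chaperones lay mostly on one side and the PERK and ATF4 branch on both. All 14 chaperones lay below the median change of all genes, against 74.9% of the genes in the brightest bin, where 13 of the 14 belong. Dnajb9 lay nearest, at -0.0014 relative to all genes. With quantile normalization, with normexp, with the deposited table and with scan as a fixed block the count was 13 of 14. It was also 13 with no filter on dim probes, with the filter on all 6 arrays and with every kept probe. Leaving out siGFP replicate 1 or 3, or circHIPK3 siRNA replicate 1 or 2, gave 13 as well. The median of the chaperones was -0.14, or -0.23 relative to all genes. Of the 16 genes of the PERK and ATF4 branch, 7 lay above the median change of all genes and 9 below it. Counted from 0, 10 lay above and 6 below. Above 0 were 16519 of all 25773 genes and 3049 of the 6443 in the brightest bin. The median of the branch was 0.05, or -0.03 relative to all genes. The whole brightest bin stood at -0.09 relative to all genes.

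**Figure D4:**
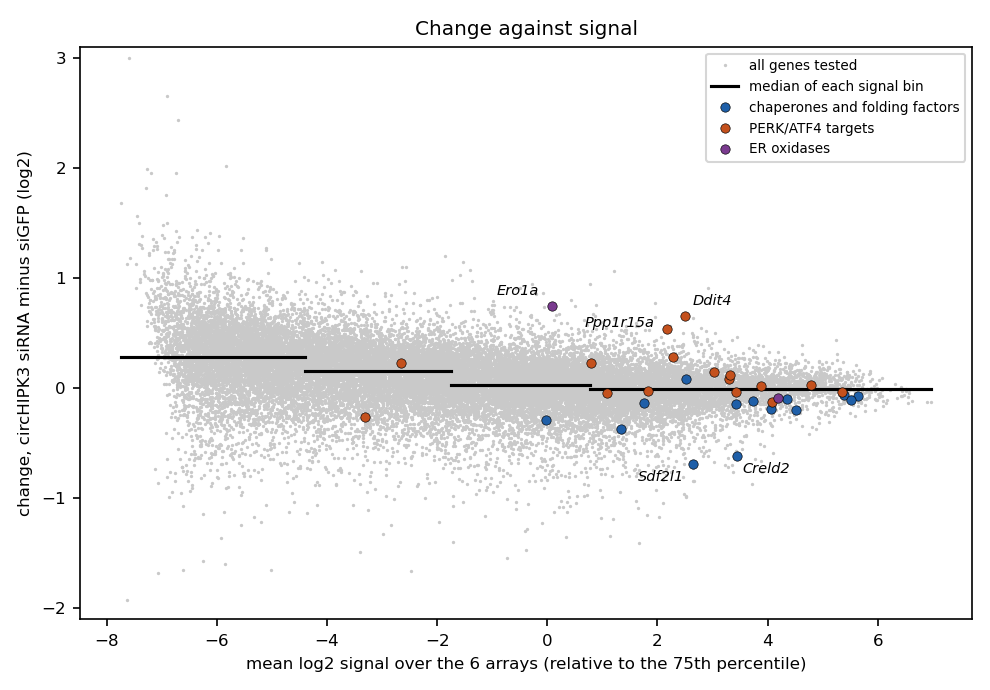
Change against mean signal for all 25773 genes and transcripts tested (grey), with the chaperones, the PERK and ATF4 branch and the ER oxidases in colour. The horizontal axis is the mean log2 signal over the 6 arrays relative to the 75th percentile, the vertical axis the change in log2 units, and black bars are the medians of the 4 bins of genes by signal. The bars descend from 0.28 to -0.01 with signal, and 13 of the 14 chaperones and 14 of the 16 genes of the PERK and ATF4 branch lie in the brightest bin.

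The arms were also followed on single arrays. Relative to all genes, and measured from the siGFP mean of each gene, the chaperone median was 0.04, -0.18 and 0.13 on the siGFP arrays. It was -0.22, -0.32 and -0.21 on the circHIPK3 siRNA arrays. The groups did not overlap, but siGFP replicate 2 lay close to the circHIPK3 siRNA arrays and was the lowest siGFP array for 13 of 14 chaperones, against 57.0% of the brightest bin. The median of the brightest bin was -0.03, 0.0017 and 0.04 on the siGFP arrays and -0.04, -0.07 and -0.17 on the others, which do not overlap either.

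The median of the PERK and ATF4 branch was -0.05, 0.19 and -0.09 on the siGFP arrays and 0.13, 0.05 and -0.25 on the circHIPK3 siRNA arrays. These overlapped. The low values came from replicate 3 of each group. siGFP replicate 3 was the lowest siGFP array for 13 of 16 genes, and circHIPK3 siRNA replicate 3 the lowest of its group for 14 of 16. In the brightest bin, where 14 of the 16 belong, these shares were 16.3% and 47.1%, and in all genes 28.3% and 28.5%. The pooled SD of these array medians within groups was 0.18 for the branch and 0.12 for the chaperones.

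The distance between the arms, the chaperone median minus that of the PERK and ATF4 branch, was 0.09, -0.36 and 0.22 on the siGFP arrays. It was -0.35, -0.36 and 0.04 on the circHIPK3 siRNA arrays. The ranges overlapped, since siGFP replicate 2 was as far below 0 as 2 of the circHIPK3 siRNA arrays, so the contrast of the arms did not exceed the spread between arrays. Taken from the median changes of the fit, this distance stayed below 0 under all 18 alternatives, from -0.41 to -0.09. The alternatives reuse the same arrays, and trend and robust variance and the replicate block leave the changes unaltered. Their agreement is therefore no further evidence for the contrast.

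**Figure D5:**
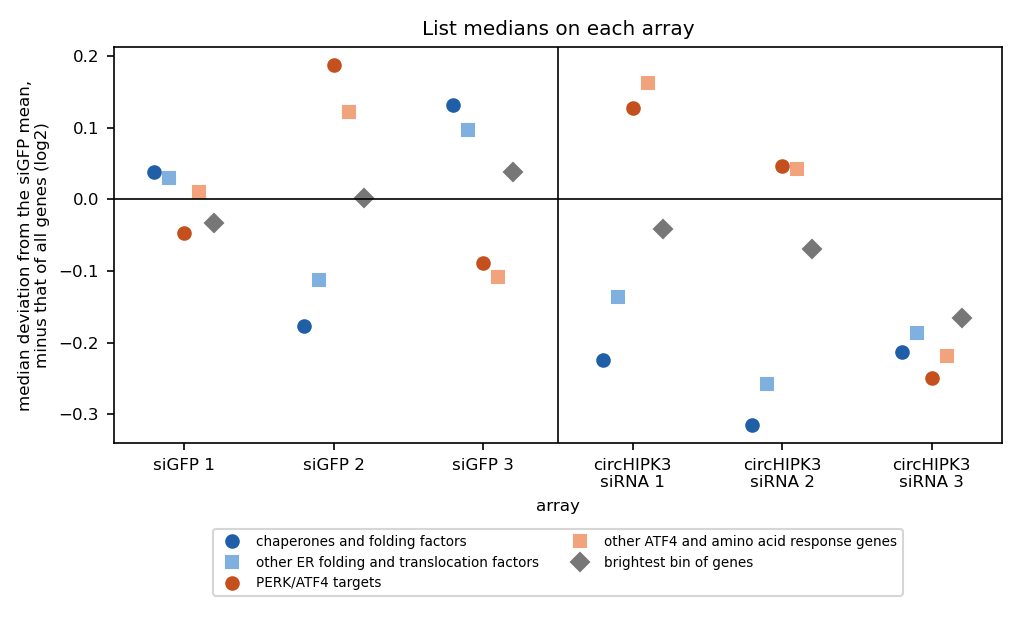
Median deviation of 5 gene lists from the siGFP mean on each of the 6 arrays, minus the same median over all genes, in log2 units. Circles are the chaperones (blue) and the PERK and ATF4 branch (orange), squares are the further genes of each pathway, and grey diamonds are the brightest bin of genes. The blue circles lie between -0.32 and -0.21 on the circHIPK3 siRNA arrays, and the orange circles overlap between groups.

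Further genes of each pathway were examined as lists. Of 28 other ER folding and translocation factors, 0 passed the test and 23 lay below the median change over all genes, with a median of -0.24 relative to it. Of these 28 genes 23 belong to the brightest bin, in which 74.9% of genes lay below that median. Non-overlapping arrays were seen for 7 lower and 2 higher genes, against 14.1% and 9.16% of the brightest bin and 9.38% and 16.6% of all genes. Txndc5, which encodes the disulfide isomerase ERp46, came nearest, with signals of 2.44, 2.11 and 2.44 against 1.51, 1.53 and 1.77. Its change was -0.72 ± 0.13 with an adjusted p of 0.054 (limma). Ssr3, a subunit of the translocon-associated protein complex, was at -0.32 ± 0.11 with an adjusted p of 0.176 (limma), also without overlap. The array medians of this list were 0.03, -0.11 and 0.10 with siGFP and -0.14, -0.26 and -0.19 with the circHIPK3 siRNA.

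Of 22 other genes of the ATF4 and amino acid response 21 were measured, and 0 passed the test. Their median change was 0.03, with 13 above 0 and 8 below. Relative to the median change of all genes, 9 lay above and 12 below. Xpot, the export factor for transfer RNA, was at 0.56 ± 0.15 with an adjusted p of 0.112 (limma), and Eif4ebp1, a repressor of cap-dependent translation, was at -0.35 ± 0.15. Of 12 aminoacyl-tRNA synthetase genes of this response 0 passed, with a median of 0.02. Eprs was at 0.26 ± 0.10 and Iars at -0.23 ± 0.10, each without overlap. Non-overlapping arrays were seen for 2 higher and 1 lower of the 12 genes. The shares were 9.16% and 14.1% in the brightest bin and 16.6% and 9.38% in all genes. By direction alone, 8 of the 12 lay above 0 and 4 below, against 16519 of all 25773 genes above 0. Relative to the median change of all genes, 4 of the 12 lay above and 8 below.

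Of 12 genes for eIF2 kinases, eIF2 and its exchange factor eIF2B, a single one passed the test, against 1.18% of all genes tested. Non-overlapping arrays were seen for 3 higher and 2 lower of the 12 genes. The shares were 16.6% and 9.38% in all genes and 9.16% and 14.1% in the brightest bin, where 6 of the 12 belong. The gene that passed was Eif2b1. Eif2b1 encodes the alpha subunit of eIF2B, the complex that recharges eIF2 and is inhibited when eIF2 is phosphorylated. Its signals were 1.15, 1.17 and 1.14 with siGFP and 0.12, 0.08 and 0.30 with the circHIPK3 siRNA. All circHIPK3 siRNA arrays lay well below the tight siGFP group. Eif2b1 fell by 0.99 ± 0.10 on the log2 scale, 1.98-fold, with an adjusted p of 0.0275 (limma). With scan as a block the change was -1.03 with an adjusted p of 0.125. The call was also lost with no filter on dim probes (adjusted p = 0.0678) and when any one array other than circHIPK3 siRNA replicate 1 was left out (adjusted p from 0.0627 to 0.146).

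The scans hold different numbers of each group, so the comparison was also made with scan as a block, in which circHIPK3 siRNA replicate 1 alone is set against siGFP. The changes were then -0.77 for Creld2, -0.66 for Sdf2l1, -0.43 for Dnajc3, 0.97 for Ddit4, 0.71 for Ppp1r15a and 0.74 for Ero1a. Each kept its direction, and 0 genes passed the test in that fit. For Creld2, Ddit4, Ppp1r15a and Ero1a the direction was bound to stay, because their groups do not overlap. It is therefore no check on the scan. With the block 12 of 14 chaperones and 1 of 16 genes of the PERK and ATF4 branch lay below 0, against 13 and 6 without it. Below the median of all genes in the same fit lay 13 and 3 with the block, and 14 and 9 without it. The part of the scan in these values was not tested further.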

How the data were processed

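Total RNA of 3 siGFP and 3 circHIPK3 siRNA samples of MIN6B1 cells was hybridised to single-colour Agilent arrays. The deposited scanner files hold a linear, background-subtracted processed intensity for each spot, and Agilent Feature Extraction 11.0.1.1 is the tool named, per the submitters' processing notes. A deposited table of log2 values for 31868 probes correlated at 0.9999 or above with the same arrays and had column medians of 9.80. Its direction is as measured and its genes were not centred, its normalization is not given in the sources used here, and it served as an alternative.

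Values were log2 processed intensities minus the 75th percentile of each array over 43020 non-control spots. Non-uniform and outlier spots were dropped before averaging the spots of each probe. A probe needed to exceed background well on every array of either group, which left 31371 of 39429 probes, and 46 of the 47 probes of the genes described. No spot was saturated. Probes were named through the accession in the files and a RefSeq table of GRCm38.p6, and the brightest kept probe stood for a gene. The arrays name another build, so coordinates are printed for promoters of GRCm38.p6 alone.

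Groups were compared by limma 3.58.1 under R 4.3.3, with lmFit, eBayes and no term but group, over 25773 genes and unnamed transcripts. P-values were two-sided, adjusted by Benjamini-Hochberg and called under 0.05, and an exact permutation test was added for array values of one gene. The procedure was tested on simulated data. With 6 arrays, their number limits the precision. The genes, the lists and the tests were chosen with earlier results of these data known. Array values were given for members whose groups do not overlap and for the brightest member of each role, and further lists were named by up to 4 genes past the threshold or the 2 with the smallest p. The alternatives were quantile normalization, median scaling, normexp with an offset of 50, the deposited table, leaving dim probes in, requiring all 6 arrays above background, every kept probe, trend and robust variance, array weights, scan as a fixed or random block, a replicate block, and each array left out. Motifs were searched in Python 3.11.15 and figures drawn with matplotlib 3.10.9.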

Additional observations from a re-analysis of the deposited data

How the results depend on the processing

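The count of members past the threshold was 0 under 15 of the 18 alternatives. It was 1 with median scaling (Creld2, adjusted p = 0.0366, against 2.33% of all genes), 3 with trend and robust variance (Creld2, Ddit4 and Ero1a, against 2.44%) and 4 with array weights (Sdf2l1, Creld2, Ppp1r15a and Ero1a, against 7%). Txndc5 passed under these 3 and with normexp. The count over all genes was 601 with median scaling, 630 with trend and robust variance, 1805 with array weights, 185 in the value table, 125 with scan as a random block, and 0 with no filter, with scan as a fixed block and with the replicate block. It ranged from 0 to 1762 when 1 array was left out, the highest without circHIPK3 siRNA replicate 1, which puts the groups in separate scans. Of the calls, 42 were higher and 202 lower with quantile normalization, 57 and 298 with normexp, 34 and 151 in the value table, 202 and 399 with median scaling, and 78 and 161 with the filter on all 6 arrays. Medians relative to all genes ranged from -0.34 to -0.15 for the chaperones and from -0.12 to 0.13 for the PERK and ATF4 branch.

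Over all genes the deviations of same-numbered arrays correlated at -0.02, 0.27 and -0.13, and the main fit used no pairing. Replicate 2 was the lowest array of its group for 13 of 14 chaperones with siGFP and for 9 with the circHIPK3 siRNA. For the 16 genes of the PERK and ATF4 branch, replicate 3 was the lowest for 13 and 14. Whether the replicate numbers pair the samples was therefore not settled. With the replicate block 0 members passed and the calls of Eif2b1 and Derl3 were lost (adjusted p = 0.0853 for both).

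Some small changes took the other sign. With array weights these were Cebpg at 0.048, Slc7a5 at 0.043, Eif2ak3 at 0.043 and Dnajb9 at -0.017. With median scaling they were Trib3 at -0.024, Psat1 at -0.081, Asns at -0.074 and Dnajb9 at -0.020. In the value table Ern1 at 0.0055, Slc7a5 at 0.017 and Eif2ak3 at 0.029 did so, with quantile normalization Ern1 at 0.0056, Slc7a5 at 0.017 and Eif2ak3 at 0.029, and with normexp Slc7a5 at 0.047 and Eif2ak3 at 0.024. With scan as a block they were Txnip at 0.29, Pdia4 at 0.056, Slc3a2 at 0.12, Chac1 at 0.12, Cebpg at 0.0023, Slc7a5 at 0.012 and Atf4 at 0.090, and with scan as a random block Txnip at 0.013. The cause was not tested. With 1 array left out, changes of sign were seen in Asns (-0.025 to 0.059), Atf4 (-0.10 to 0.071), Calr (-0.25 to 0.010), Cebpg (-0.12 to 0.040), Chac1 (-0.25 to 0.024), Dnajb9 (-0.012 to 0.15), Eif2ak3 (-0.079 to 0.038), Ern1 (-0.17 to 0.099), Ero1b (-0.27 to 0.027), Hsp90b1 (-0.11 to 0.0017), Nupr1 (-0.028 to 0.37), Pdia4 (-0.30 to 0.082), Psat1 (-0.036 to 0.10), Slc3a2 (-0.12 to 0.0071), Slc7a11 (-0.023 to 0.40), Slc7a5 (-0.076 to 0.045), Trib3 (-0.031 to 0.27) and Txnip (-0.19 to 0.21).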
